A study of Mus musculus with 13 samples.

Results

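Young haematopoietic stem cells (HSCs) of high mitochondrial membrane potential (MMP) were compared with young HSCs of low MMP, across all expressed genes. The comparison used 7 of the 13 RNA libraries of the series, chosen by their titles: 4 titled Young MMP high and 3 titled Young MMP low. All 7 came from untreated C57BL/6 JRj mice aged 8 to 12 weeks. After enrichment of marrow for Kit, live cells that were negative for lineage markers, Kit+, Sca1+, CD48- and CD150+ were sorted, and both young groups share these gates. Which dye was used, and where high was set apart from low MMP, is not given in the sources used here. Libraries were made from total RNA by a Nextera XT protocol at volumes cut 20-fold. The other 6 libraries, 3 Old MMP low and 3 Old MMP high, came from untreated mice of the same strain aged over 18 months, and they enter below through the shared estimate of spread and 1 comparison of ages. The labels do not say whether replicates are separate animals, so p-values measure no more than the spread between these samples, which may be technical.

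HSCs are rare marrow cells that renew themselves and give rise to all blood lineages, and most of them are quiescent in the adult. MMP is the voltage that the respiratory chain builds across the inner mitochondrial membrane. It drives ATP synthesis and protein import, and it is read in live cells with dyes that gather in charged mitochondria. HSCs also pump many dyes out through membrane transporters. In bulk RNA, fewer cells of a type and less RNA per cell cannot be told apart.

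Total counts in the young libraries ran from 9116897 to 10041109, and 18502 to 26063 gene symbols had a count. Levels are given in CPM after TMM scaling, which sets counts to a common library size, in the order Young MMP low 1 to 3 and Young MMP high 1 to 4. Several libraries stood apart. The nuclear RNA Malat1 had 1218 counts in Young MMP low 1 and 7952 to 14060 in the other young libraries. Young MMP high 4 and Young MMP low 3 lay together at 1 end of the first principal component, which held 30.2% of the variance of the young libraries, and they had the fewest symbols with a count, 18799 and 18502. Young MMP high 1 to 3 correlated with each other at 0.947 to 0.948 on the log2 CPM scale, and Young MMP high 4 with them at 0.900 to 0.924. Markers of mature neutrophils and monocytes, summed over 24 genes, ran from 8123 to 53199 CPM in MMP low and from 2060.5 to 47903 CPM in MMP high libraries. The sums of 12 erythroblast markers ran from 5453 to 19721 and from 3880 to 41949 CPM, and those of 15 B and plasma cell markers from 100.4 to 778 and from 74.2 to 469 CPM. Both groups thus overlapped in each of these 3 sums.

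Of the genes behind the sort gate, Kit, the stem cell factor receptor, was read at 635 to 688 CPM in MMP low and 479 to 684 CPM in MMP high libraries (log2 -0.29 ± 0.17, adjusted p = 0.476). Cd8a was at 0 in all 7 libraries and Cd3e at 0 in 5 of them, which allows up to 3 counts in each. Ly6a, which encodes Sca1, was read at 199.9, 97.3 and 109 CPM in MMP low and 41.4, 49.5, 51.97 and 72.2 CPM in MMP high libraries. Slamf1, which encodes CD150, was read at 65.2, 45.9 and 46.03 CPM and 25.9, 26.6, 29.3 and 27.5 CPM. Both sets of values are separate, and both genes are lower in MMP high HSCs (log2 -1.33 ± 0.26, adjusted p = 0.0322 for Ly6a, log2 -0.94 ± 0.17, adjusted p = 0.0249 for Slamf1). Neither passed the threshold once Young MMP high 1, 2 or 3, or Young MMP low 1 or 3, was left out (adjusted p up to 0.111). The dye efflux gene Abcg2 was at 136 to 174 CPM in MMP low and 81.4 to 117 CPM in MMP high libraries, without overlap, and was not called (log2 -0.59 ± 0.16, adjusted p = 0.101). Abcb1a (log2 -0.57 ± 0.46, adjusted p = 0.619) and Abcb1b (log2 0.07 ± 0.25, adjusted p = 0.937) were not called either.

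In young HSCs, the genes that passed the test with MMP high higher included 14 of 43 replication genes, 6 of 44 spindle, kinetochore and cytokinesis genes, 5 of 34 megakaryocyte and platelet genes, and 2 each of 33 recombination and 35 nucleotide synthesis genes. Those that passed with MMP high lower included 8 of 17 GBP and IRG genes, which encode interferon-inducible GTPases, 3 of 34 detoxification genes, 2 of 39 adhesion and junction genes and 1 of 39 lysosome and autophagy genes. Most members of these lists did not pass, and most of the calls ended when certain single libraries were left out, as given below. Of 17125 genes tested, 170 passed an adjusted p of 0.05 (0.993%), of which 76 were higher (0.444%) in MMP high HSCs and 94 lower (0.549%). The test was edgeR's quasi-likelihood test with Benjamini-Hochberg adjustment, and fold changes are log2 of MMP high over MMP low. The value after ± is an approximate standard error, the size of the fold change divided by the square root of the test's F value. A gene that passed is called below. The groups did not overlap in any of the 170 called genes. Among all genes tested, 12.1% did not overlap (5.65% higher, 6.49% lower), and the median log2 fold change was -0.01. For a single gene, 35 splits of 7 libraries are possible, so an exact two-sided rank-sum test could not go below p = 0.0571.

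The number of called genes depended on the libraries in the fit. With Young MMP low 3 left out, 10 of the 170 were still called. With Young MMP high 1, 2 or 3 left out, 21, 24 or 55 were. Leaving out Young MMP low 1 or 2 kept 93 or 97 of them, and leaving out Young MMP high 4 kept 142. With 1 old library left out, 73 to 119 of the 170 were called. In each of these 13 fits, all 170 kept the sign of their fold change. Their young groups do not overlap, so leaving out 1 library could hardly turn a sign, and this is no test of stability. Fitted to the 7 young libraries alone, the edgeR test called 0 genes (smallest adjusted p = 0.0781), with 1870 genes at an unadjusted p under 0.05, and DESeq2 called 473, of which 169 were among the 170. With a block for neighbouring library names, 45 of the 74 called genes named here were still called. The 29 that were not (adjusted p up to 0.152) are Igtp, Iigp1, Ifitm7, Ube2l6, Espl1, Bub1b, Incenp, Cenpm, Timeless, Ung, Tk2, Cdk6, Ppm1g, Nucks1, Hnrnpab, Ybx3, Aqp1, Gstm1, Plin3, Plcl1, Ocln, Emcn, Tgfb1, Ly6a, Slamf1, Prkcz, Asah1, Smpdl3a and Nceh1. Of the called genes named here, 9 passed the threshold with any 1 of the 13 libraries left out: Gbp4, Gbp6, Gbp8, Sult1a1, Cchcr1, Dennd1c, Smtnl1, Ache and Enpp5, with adjusted p up to 0.0477. Ache, which encodes acetylcholinesterase, was read at 4.65, 8.13 and 3.42 CPM in MMP low and 26.8, 44.5, 27.6 and 33.3 CPM in MMP high libraries, far apart (log2 2.61 ± 0.35, adjusted p = 0.00797).

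**Figure D1:**
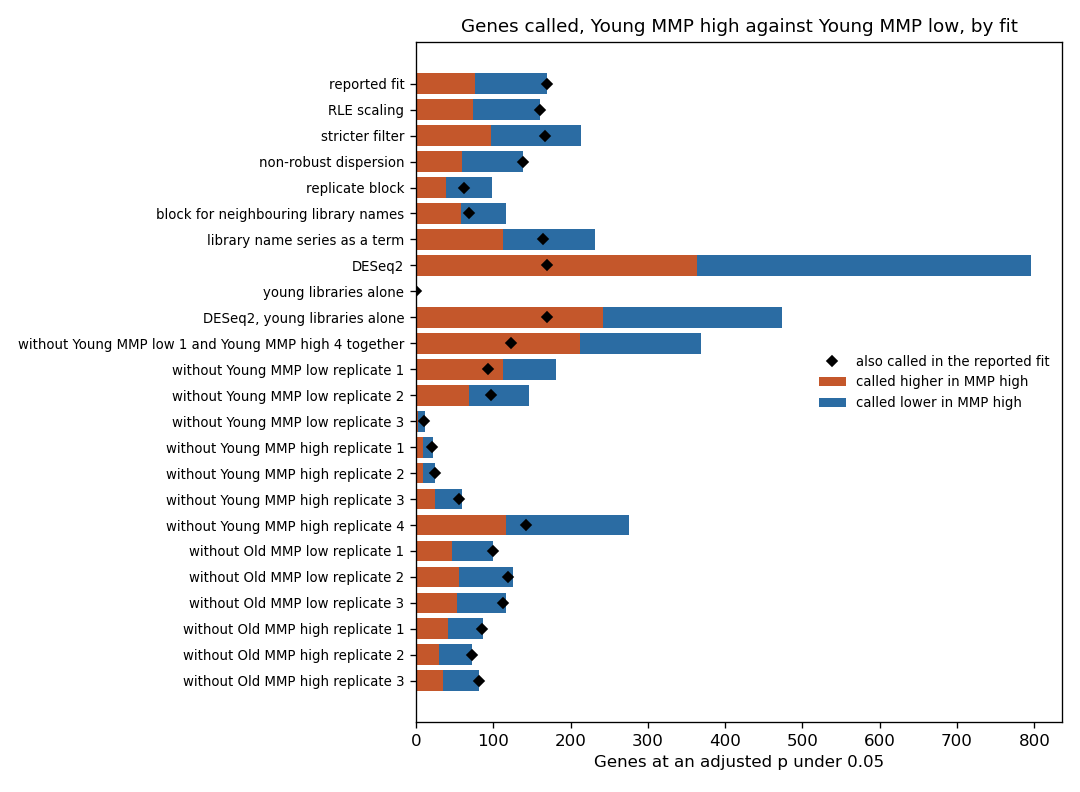
Genes at an adjusted p under 0.05 (x axis) in the reported fit and under other settings (y axis), split into genes higher and lower in MMP high HSCs. Diamonds mark how many were also among the 170 of the reported fit. The fit with no filter on low counts is not drawn. The shortest bars that include young and old libraries belong to the fit without Young MMP low replicate 3 (11 genes) and the fits without Young MMP high replicate 1 (22) and 2 (24).

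**Figure D2:**
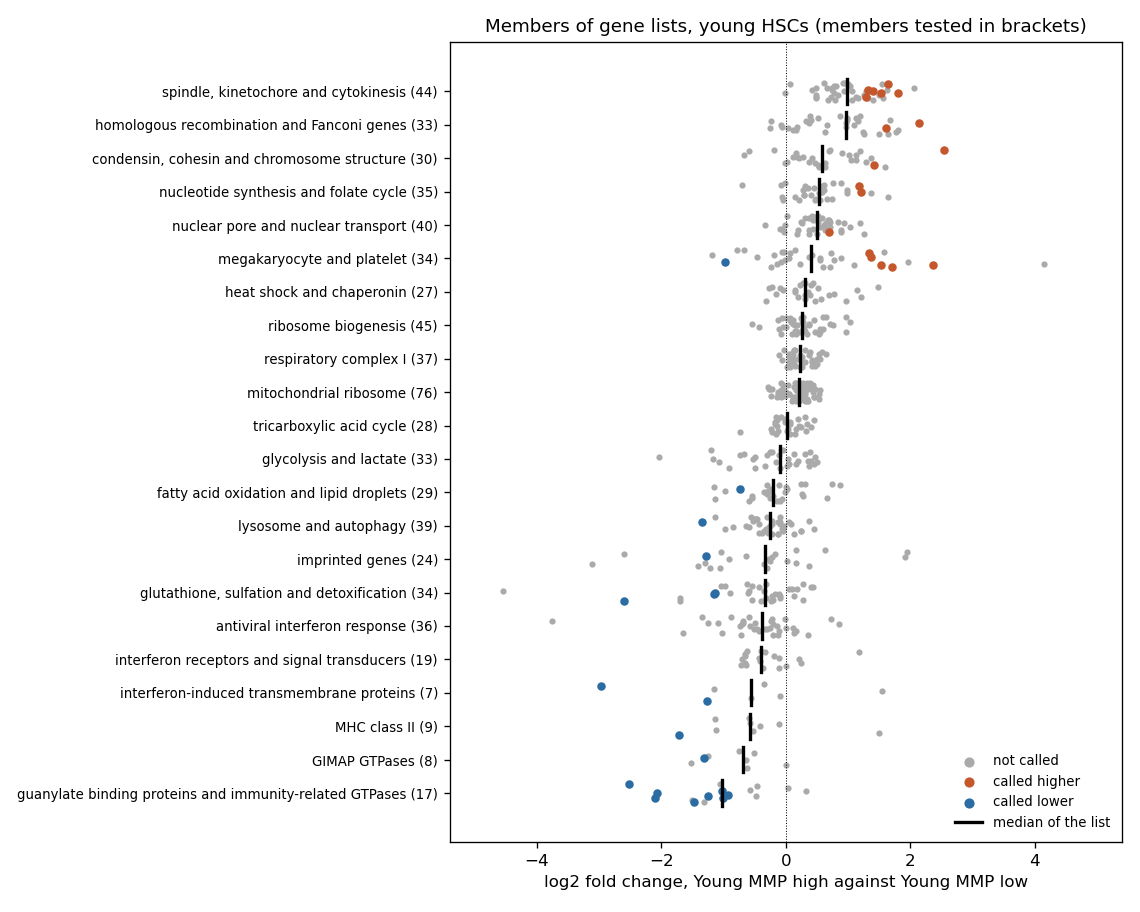
Log2 fold change of each tested member (points; x axis) of 22 gene lists (y axis, with the number tested), Young MMP high against Young MMP low. The black bar is the list's median, which runs from -1.03 for guanylate binding proteins and immunity-related GTPases to 0.98 for spindle, kinetochore and cytokinesis genes. Called members are coloured.

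The plot of gene lists shows their medians in order. Both ends are families with called members, and the lists of the respiratory chain, the tricarboxylic acid cycle and glycolysis lie in the middle.

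The guanylate binding proteins (GBPs) and the immunity-related GTPases (IRGs) are large GTPases that cells make in response to interferon and that attack the membranes around intracellular microbes. Many of their genes carry an interferon-stimulated response element, the site read by complexes of STAT and IRF factors. The promoter windows of 3 IRG genes are shown because these genes were lower together in MMP high HSCs. They are RefSeq windows on GRCm38.p6, from 250 bases before to 50 bases after the gene's start, written along the gene's strand. Capitals mark the match to GAAA-NN-GAAA (GAAA, then 2 bases of any kind, then GAAA), searched on both strands.

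Igtp, chr11:58199306-58199605, plus strand: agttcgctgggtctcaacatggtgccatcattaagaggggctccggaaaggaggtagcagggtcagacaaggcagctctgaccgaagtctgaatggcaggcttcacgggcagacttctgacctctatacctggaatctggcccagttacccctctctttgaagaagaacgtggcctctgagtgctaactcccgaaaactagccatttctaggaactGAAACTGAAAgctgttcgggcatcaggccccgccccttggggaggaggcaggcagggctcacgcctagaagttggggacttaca
Irgm2, chr11:58214727-58215026, plus strand: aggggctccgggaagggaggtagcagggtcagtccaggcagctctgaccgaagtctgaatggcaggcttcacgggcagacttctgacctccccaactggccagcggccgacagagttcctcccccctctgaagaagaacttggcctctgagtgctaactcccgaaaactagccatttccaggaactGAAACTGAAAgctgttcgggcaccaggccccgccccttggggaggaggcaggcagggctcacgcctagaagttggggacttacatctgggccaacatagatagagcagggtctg
Tgtp1, chr11:48992197-48992496, minus strand: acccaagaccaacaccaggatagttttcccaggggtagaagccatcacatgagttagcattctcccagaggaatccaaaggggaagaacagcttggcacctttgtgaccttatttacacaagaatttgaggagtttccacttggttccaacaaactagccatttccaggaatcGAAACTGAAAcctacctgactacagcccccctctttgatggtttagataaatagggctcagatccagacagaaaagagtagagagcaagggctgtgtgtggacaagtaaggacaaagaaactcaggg

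The marked bases are the same in these 3 windows, and they start 34, 64 and 77 bases before the gene's start. Each window also holds 1 match to TTCNNNGAA, the form of the interferon gamma activated site. Of all 32851 windows, 3.44% held GAAA-NN-GAAA and 8.30% held TTCNNNGAA, and of windows of genes tested 3.18% and 6.99% did. Of the 12 windows that 11 of the tested GBP and IRG genes have, 9 held GAAA-NN-GAAA and 6 held TTCNNNGAA. The windows of Tgtp2, Irgm1, Gbp2, Gbp5 and Gbp7 and 1 of the 2 of Gbp3 hold GAAA-NN-GAAA as well, and those of Ifi47 and Irgq and the other of Gbp3 do not. A match is a description of the letters and does not show binding.

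Of 20 GBP and IRG genes listed, 18 were matched to a symbol and 17 were tested. Of these 17, 8 fell (GBP genes on chromosome 5, and IRG genes), none rose, and 9 had non-overlapping groups with MMP high lower. The median log2 fold change was -1.03. Tgtp2, an IRG gene of high level in these cells, was read at 1069, 806 and 749 CPM in MMP low and 359, 542, 335 and 500.05 CPM in MMP high libraries. Its neighbour Tgtp1 (chromosome 11, 48985327 to 48994172) was read at 911, 672 and 639 CPM and 299, 452, 275 and 424 CPM. In both genes the groups are separate, with every MMP high library below every MMP low library (log2 -1.01 ± 0.19 and -1.03 ± 0.19, adjusted p = 0.0284 and 0.0286). Tgtp1 and Tgtp2 are close copies whose reads can be split between them, so they may stand for 1 measurement.

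Igtp (also called Irgm3; chromosome 11, 58199556 to 58207591) was read at 119, 77.9 and 93.99 CPM in MMP low and 44.97, 62.4, 53.6 and 42.3 CPM in MMP high libraries. It overlaps Irgm2 in the annotation, and Irgm2 was read at 74.01, 37.9 and 57.6 CPM and 28.2, 30.6, 20.1 and 16.2 CPM. Iigp1, an effector GTPase of the same family, was read at 37.5, 40.2 and 55.4 CPM and 15.4, 23.03, 15.6 and 9.57 CPM. All 3 are lower in every MMP high library than in any MMP low library (log2 -0.93 ± 0.19, adjusted p = 0.0341, log2 -1.24 ± 0.26, adjusted p = 0.0395 and log2 -1.48 ± 0.31, adjusted p = 0.0401 in turn). Ifi47, another IRG gene, did not share this: its levels were 171, 148 and 99.2 CPM and 147, 162, 123 and 139 CPM (log2 0.03 ± 0.18, adjusted p = 0.959). Irgm1, a regulator of the effector IRGs, was at 123, 102 and 136 CPM and 83.2, 80.9, 54.03 and 105 CPM, with overlap (log2 -0.57 ± 0.23, adjusted p = 0.268).

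The called GBP genes lie in the cluster on chromosome 5. Gbp4 was read at 36.5, 41.6 and 25.7 CPM in MMP low and 6.45, 6.81, 3.32 and 7.56 CPM in MMP high libraries, so that every MMP low library held more than any MMP high library (log2 -2.52 ± 0.29, adjusted p = 0.00387). Gbp6 was read at 108, 73.1 and 54.9 CPM and 14.2, 27.04, 20.5 and 11.1 CPM (log2 -2.11 ± 0.30, adjusted p = 0.0107). Gbp8 was read at 37.9, 30.5 and 34.3 CPM and 6.14, 8.91, 9.04 and 8.45 CPM (log2 -2.07 ± 0.24, adjusted p = 0.00387). Gbp4, Gbp8 and Gbp9 overlap in the annotation and are near copies, so the split between them is uncertain. On chromosome 3, Gbp2 was at 71.7, 80.2 and 78.4 CPM and 39.97, 44.7, 35.5 and 32.8 CPM, separate but not called (log2 -1.01 ± 0.28, adjusted p = 0.115). Gbp3 (-0.48 ± 0.29), Gbp7 (-0.47 ± 0.30), Gbp5 (0.32 ± 0.71), Gbp9 (-1.51 ± 0.53), Gbp11 (-1.31 ± 0.79) and the constitutive IRG gene Irgq (-1.06 ± 0.67) were not called, with adjusted p from 0.194 (Gbp9) to 0.888 (Gbp5). Of the 8 called GBP and IRG genes, 3 remained called without each of Young MMP high 1 and 3 and Young MMP low 1 and 3, and 5 to 7 without each of the others. The largest adjusted p was 0.137, for Iigp1 without Young MMP low 3.

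**Figure D3:**
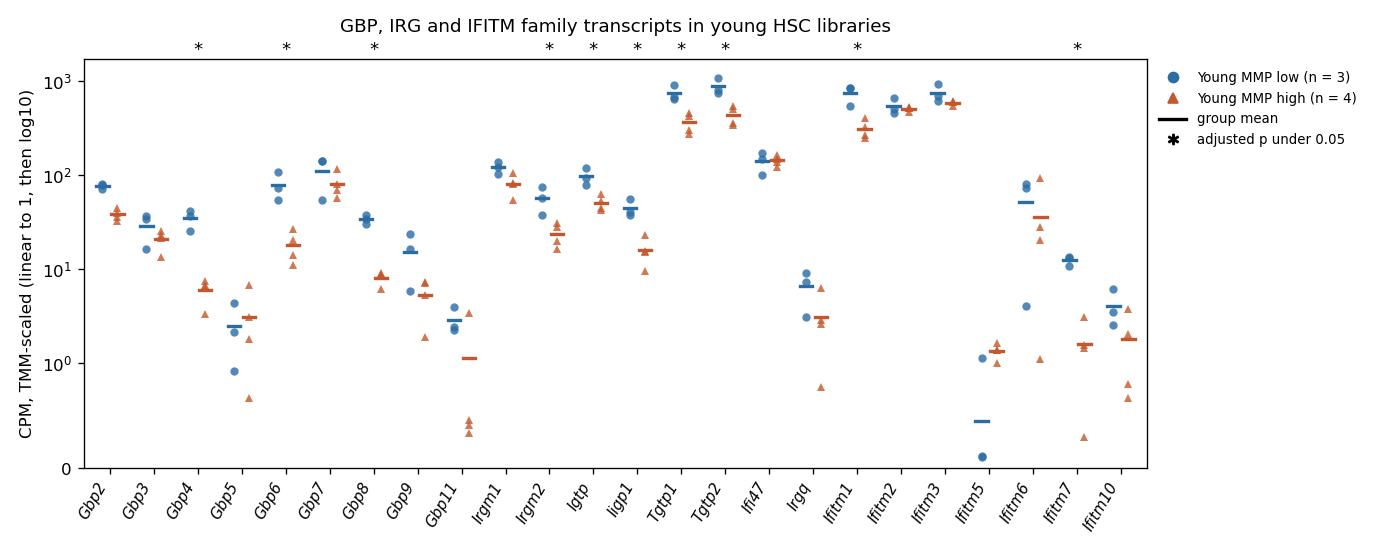
CPM of each library (y axis, linear up to 1 and log10 above) for the tested GBP, IRG and IFITM genes (x axis), with bars at group means. Stars mark called genes. In the starred genes every MMP low library lies above every MMP high library, and Ifi47, Ifitm2 and Ifitm6 show overlapping groups.

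The interferon-induced transmembrane (IFITM) genes encode small membrane proteins that block virus entry, and several of them are made by stem cells without interferon. Of the 7 tested, 2 fell and 5 were not called. Ifitm1 was read at 844, 542 and 833 CPM in MMP low and 263, 248, 324 and 399 CPM in MMP high libraries (log2 -1.26 ± 0.19, adjusted p = 0.0133). Ifitm7 was read at 10.7, 13.6 and 13.2 CPM and 1.46, 0.3004, 3.09 and 1.56 CPM (log2 -2.97 ± 0.56, adjusted p = 0.0307). Their groups are separate, whereas Ifitm2 was level at 649, 459.7 and 507 CPM and 471, 523, 512 and 515 CPM (-0.09 ± 0.14) and Ifitm3 at 929, 616 and 685 CPM and 541, 589, 589 and 609 CPM (-0.35 ± 0.16, adjusted p = 0.313). Ifitm6 ranged from 1.11 to 93.2 CPM among MMP high libraries alone (-0.55 ± 1.25), and Ifitm5 (1.55 ± 0.92) and Ifitm10 (-1.16 ± 0.68) were at low levels. Once Young MMP high 1 or 2, or Young MMP low 3, was left out neither Ifitm1 nor Ifitm7 passed, and without Young MMP low 2 only 1 of them did (adjusted p up to 0.0910).

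None of the 19 interferon receptors and signal transducers was called, and 15 had a fold change below 0 (median -0.40, against -0.01 over all genes). Irf2, a repressor and activator at interferon response elements, was read at 93.6, 74.4 and 93.6 CPM in MMP low and 44.6, 49.4, 54.5 and 62.6 CPM in MMP high libraries, without overlap (log2 -0.72 ± 0.20, adjusted p = 0.105). The interferon gamma receptor chain Ifngr1 was at -0.65 ± 0.19 (adjusted p = 0.123), Jak1 at -0.41 ± 0.17 and Irf1 at -0.43 ± 0.16. The kinase gene Tyk2 had the opposite sign at 1.18 ± 0.34 (adjusted p = 0.1201). Levels of these genes in MMP high HSCs were thus lower in sign for most, with no test passed.

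Of 36 antiviral interferon response genes none was called, 29 had a fold change below 0, and 10 had non-overlapping groups with MMP high lower, where 6.49% of all genes did. The median was -0.38. The members of smallest p were the nuclear body gene Sp100 (log2 -0.68 ± 0.18, adjusted p = 0.0875), the oligoadenylate synthetase-like Oasl2 (log2 -0.88 ± 0.23, adjusted p = 0.0878), Trim30a (log2 -0.72 ± 0.19, adjusted p = 0.0937) and the dNTP hydrolase Samhd1 (log2 -1.02 ± 0.28, adjusted p = 0.106). Outside the list, Ube2l6, the conjugating enzyme of the ubiquitin-like ISG15, fell from 355, 233 and 335 CPM to 183, 184, 153 and 189.6 CPM (log2 -0.79 ± 0.16, adjusted p = 0.0355). It passed only without Young MMP high 4, Young MMP low 2 or Old MMP low 2 (adjusted p up to 0.118 without the others). Lgals3bp was at 363, 181 and 324 CPM and 159, 172, 166 and 279 CPM, with overlap (log2 -0.58 ± 0.24, adjusted p = 0.285).

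Antigen presentation genes were mostly lower in sign. Cd74, the invariant chain of MHC class II, was read at 733, 313 and 292 CPM in MMP low and 107, 146, 148 and 145 CPM in MMP high libraries, so that its groups are separate and Young MMP low 1 is the highest (log2 -1.71 ± 0.35, adjusted p = 0.0362). Its call ended when Young MMP high 1, 2 or 3, Young MMP low 1 or 3, Old MMP high 1 or 3, or Old MMP low 3 was left out (adjusted p up to 0.117). It was the single called member of 9 MHC class II genes (median -0.58). H2-Aa was at 190.1, 68.1 and 74.01 CPM and 44.5, 70.7, 50.9 and 37.8 CPM (log2 -1.12 ± 0.34, adjusted p = 0.134), and H2-Ab1 at 276, 117 and 89.4 CPM and 89.6, 143, 87.7 and 109 CPM (log2 -0.59 ± 0.34, adjusted p = 0.457), both with overlap. B and plasma cells also express these genes: their 15 markers summed to 187, 778 and 100.4 CPM in Young MMP low 1 to 3 and to 469, 78.7, 212 and 74.2 CPM in Young MMP high 1 to 4, and their part in the result was not tested. None of 22 MHC class I and antigen processing genes was called (median -0.23). H2-D1 was at -0.47 ± 0.15, H2-K1 at -0.27 ± 0.15 and B2m at -0.32 ± 0.16.

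The GIMAP genes encode GTPases of immunity-associated proteins, which are best known from lymphocyte survival. Gimap6 was read at 343, 290.4 and 404 CPM in MMP low and 137, 126, 97.5 and 197 CPM in MMP high libraries, with no overlap (log2 -1.31 ± 0.20, adjusted p = 0.0143). Leaving out Young MMP high 2 or Young MMP low 3 ended its call (adjusted p up to 0.0694). Of the 7 other tested members, Gimap1 (-0.63 ± 0.25), Gimap3 (-1.24 ± 0.48), Gimap4 (-1.53 ± 0.53), Gimap5 (-0.74 ± 0.34), Gimap8 (-0.51 ± 0.67) and Gimap9 (-0.64 ± 0.32) were below 0 and not called, and Gimap7 was at 0.00 ± 1.02. The median of the 8 was -0.69. The sums of 16 T and NK cell markers ran from 132 to 265 CPM in MMP low and from 194 to 261 CPM in MMP high libraries, with Cd8a among the 2 markers at 0, and the groups overlapped.

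Replication genes held more called genes than any other list (14 of 43 rose, median 0.73). Beyond them, 6 of 44 genes of the spindle, kinetochore and cytokinesis and 2 of 30 of chromosome structure rose. Dividing cells build the spindle and kinetochores late in the cycle, and many genes for this carry a CCAAT box and a cell cycle homology region, the site bound by complexes that hold them off in quiescent cells. Promoter windows of Ncapd2 and Kif4 are shown because these genes were higher in every MMP high library. Capitals mark the match to TTTGAA, searched on both strands.

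Ncapd2, chr6:125191537-125191836, minus strand: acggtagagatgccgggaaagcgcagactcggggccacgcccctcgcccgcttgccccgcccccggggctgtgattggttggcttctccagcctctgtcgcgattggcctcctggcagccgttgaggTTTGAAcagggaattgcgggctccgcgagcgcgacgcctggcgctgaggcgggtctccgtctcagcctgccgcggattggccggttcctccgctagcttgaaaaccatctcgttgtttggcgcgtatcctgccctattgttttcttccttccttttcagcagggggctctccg
Kif4, chrX:100625815-100626114, plus strand: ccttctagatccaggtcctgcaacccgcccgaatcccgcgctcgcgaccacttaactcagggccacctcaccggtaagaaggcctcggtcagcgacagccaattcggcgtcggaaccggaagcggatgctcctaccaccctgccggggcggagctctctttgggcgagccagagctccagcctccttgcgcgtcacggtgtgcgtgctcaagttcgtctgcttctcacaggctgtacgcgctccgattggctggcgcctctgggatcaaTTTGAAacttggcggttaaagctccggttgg

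The marked bases start 123 bases before the start of Ncapd2 and 19 bases after that of Kif4. The Ncapd2 window also holds 3 matches to CCAAT and 1 to an E2F site (TTTGGCGC or TTTCCCGC), and the Kif4 window 2 matches to CCAAT. Of all windows, 17.9% held TTTGAA, 37.4% CCAAT and 1.56% an E2F site. Among 42 windows of spindle, kinetochore and cytokinesis genes, 71.4% held TTTGAA and 83.3% CCAAT. Among 43 windows of replication genes, 18.6% held TTTGAA and 30.2% an E2F site.

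Of 44 spindle, kinetochore and cytokinesis genes, 6 rose, none fell and 43 had a fold change above 0, with a median of 0.98. Kif4, a chromosome-bound kinesin, was read at 14.5, 15.8 and 8.76 CPM in MMP low and 43.5, 47.7, 38.9 and 32.5 CPM in MMP high libraries (log2 1.64 ± 0.33, adjusted p = 0.0379). Incenp, the scaffold of the Aurora B complex, was read at 15.6, 34.05 and 22.001 CPM and 66.9, 85.7, 80.1 and 42.8 CPM (log2 1.53 ± 0.30, adjusted p = 0.0322). The kinetochore genes Spc24 and Cenpm were read at 63.8, 33.5 and 27.8 and 37.003, 16.8 and 15.1 CPM in MMP low libraries, and at 99.6, 129.98, 99.1 and 88.996 and 63.1, 62.8, 53.9 and 60.96 CPM in MMP high libraries (1.33 ± 0.27 and 1.39 ± 0.29; adjusted p = 0.0379 and 0.040002). The centrosome kinase Nek2 (1.81 ± 0.33) and the checkpoint kinase Bub1b (1.28 ± 0.28) rose too. In these 6 genes the groups are separate, and in all but Cenpm Young MMP high 4 is the lowest of the MMP high libraries. Top2a, the topoisomerase of mitotic chromosomes, was at 70.98, 96.4 and 41.1 CPM and 307, 215, 204 and 86.2 CPM, with Young MMP high 4 inside the range of MMP low, and was not called (log2 1.55 ± 0.42, adjusted p = 0.0985). Once Young MMP high 1 or 2, or Young MMP low 3, was left out none of the 6 passed, without Young MMP high 3 only 1 did, and 3 did without Young MMP low 1 or 2 (adjusted p up to 0.160). Of the 6, 3, 4 and 5 passed without Old MMP low 1, 2 and 3 in turn, and 2 passed without each Old MMP high library.

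Of 30 genes of condensin, cohesin and chromosome structure, 2 rose and none fell (median 0.57). Ncapd2, a subunit of condensin I, was read at 41.4, 37.3 and 36.5 CPM in MMP low and 99.6, 139, 78.98 and 91.2 CPM in MMP high libraries (log2 1.41 ± 0.21, adjusted p = 0.0133). Espl1, the separase that cuts cohesin at anaphase, was read at 2.09, 9.57 and 4.81 CPM and 19.8, 46.7, 19.3 and 42.6 CPM (log2 2.54 ± 0.50, adjusted p = 0.0342). Tubb5, the main beta-tubulin of these cells, was read at 603, 421 and 432 CPM and 836, 1037, 882 and 891 CPM (log2 0.91 ± 0.16, adjusted p = 0.0268), and Tuba8 at 68.8, 60.1 and 54.3 CPM and 184, 226, 156 and 113 CPM (log2 1.48 ± 0.22, adjusted p = 0.0133). Cdk6, the kinase that carries HSCs out of quiescence with D cyclins, was read at 60.7, 109.6 and 106 CPM and 193, 266, 230.1 and 163 CPM (log2 1.21 ± 0.26, adjusted p = 0.0487). Each of these 5 genes had separate groups. Without Young MMP low 3 none of them was called (adjusted p up to 0.111). Without Young MMP high 1 or 2 only Ncapd2 and Tuba8 were, without Young MMP high 3 or Young MMP low 2 Espl1 was called beside them, and without Young MMP low 1 Tubb5 was. Cdk6 was called only without Young MMP high 4, Old MMP low 1 or Old MMP low 3, and Espl1 missed the threshold without Old MMP high 2 as well.

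Homologous recombination and Fanconi genes repair breaks and crosslinks met by replication forks. Of 33 tested, 2 rose, none fell and 12 did not overlap with MMP high higher, and the median was 0.97. Brca1 was read at 15.4, 7.2001 and 6.09 CPM in MMP low and 38.7, 31.9, 24.3 and 21.7 CPM in MMP high libraries (log2 1.61 ± 0.34, adjusted p = 0.0449). Its partner helicase Brip1 was read at 9.08, 7.92 and 6.19 CPM and 37.7, 25.2, 32.3 and 41.8 CPM (log2 2.15 ± 0.30, adjusted p = 0.00836). The nuclease gene Exo1 at 22.5, 16.7 and 18.2 CPM and 44.1, 35.2, 34.6 and 49.5 CPM (log2 1.10 ± 0.25, adjusted p = 0.0518) was separate as well and just missed the threshold. Of 35 mismatch, excision and end-joining repair genes, 2 rose: Ung, the glycosylase that removes uracil from DNA (1.28, 1.65 and 1.39 CPM against 7.91, 6.81, 10.99 and 6.56 CPM, log2 2.48 ± 0.47, adjusted p = 0.0307), and the fork protein Timeless (9.19, 21.2 and 20.4 CPM against 78.6, 63.5, 42.7 and 52.1 CPM, log2 1.80 ± 0.32, adjusted p = 0.0242). Chaf1a, which loads histones on new DNA, was read at 25.8, 11.4 and 33.7 CPM and 62.7, 70.996, 62.4 and 84.99 CPM (log2 1.57 ± 0.33, adjusted p = 0.0437). Of these 5 called genes, none passed without Young MMP low 3 (adjusted p up to 0.146), and only Brip1 did without Young MMP high 1 or 2. Without Young MMP high 3 or Young MMP low 2 Brip1 and Timeless passed, without Young MMP low 1 Brca1 did too, and without each of the others 3 or 4 did.

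Nucleotide synthesis showed a contrast between cytosolic and mitochondrial thymidine kinases. Tk1, the cytosolic kinase that is made in S phase, was read at 119.7, 64.4 and 58.5 CPM in MMP low and 169, 239, 164 and 162 CPM in MMP high libraries (log2 1.18 ± 0.26, adjusted p = 0.04797). Tk2, the mitochondrial kinase that supplies mitochondrial DNA synthesis outside S phase, was read at 76.3, 66.04 and 72.1 CPM and 30.4, 38.95, 35.4 and 35.5 CPM (log2 -1.03 ± 0.16, adjusted p = 0.0152). Every MMP high library was above all MMP low libraries for Tk1 and below all of them for Tk2. Of the 35 genes of nucleotide synthesis and the folate cycle, 2 rose, Tk1 among them, none fell, 30 had a fold change above 0 and 19 did not overlap, all with MMP high higher, and the median was 0.53. Tk1 was called without Young MMP high 4 and without Young MMP low 1, and missed the threshold without each of the other 11 libraries (adjusted p up to 0.156). Tk2 is no member of that list, and its call ended without Young MMP high 1 or Young MMP low 3 (adjusted p up to 0.0694). Tk1 overlaps 2 other tested genes on the opposite strand, and the sources used here do not give the strand setting of the counts.

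Nuclear transport and chaperonin genes were higher in sign. Ran, the GTPase that gives nuclear transport its direction, was read at 696, 587 and 614 CPM in MMP low and 976, 1106, 979.6 and 1027 CPM in MMP high libraries (log2 0.69 ± 0.12, adjusted p = 0.0226). It was the single called member of 40 genes of the nuclear pore and nuclear transport, of which 15 did not overlap with MMP high higher and 1 with MMP high lower (median 0.51). The call of Ran ended when Young MMP high 1 or 2, or Young MMP low 2 or 3, was left out (adjusted p up to 0.0907). Nup85 (0.65 ± 0.18, adjusted p = 0.1201) and Ranbp1 (0.43 ± 0.15, adjusted p = 0.189) were not called. Of 27 heat shock and chaperonin genes none was called, and 11 did not overlap, all with MMP high higher (median 0.31). Hspe1, the mitochondrial co-chaperonin, was at 57.1, 40.5 and 39.4 CPM and 106, 93.2, 93.2 and 65.3 CPM (log2 0.97 ± 0.23, adjusted p = 0.0631), and the chaperonin subunit Tcp1 at 273, 272 and 228 CPM and 352, 341, 352 and 349.98 CPM (log2 0.44 ± 0.13, adjusted p = 0.1201). Stip1 (0.38 ± 0.12), Ahsa1 (0.48 ± 0.14) and Cct7 (0.36 ± 0.12) had separate groups and were not called, and Hspa8 was at 0.15 ± 0.11.

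Genes of translation were mostly higher in sign, without calls. None of 75 cytosolic ribosomal protein genes was called, and 0 of them had separate groups in either direction, although 70 had a fold change above 0 (median 0.30). That median ran from 0.17 without Young MMP low 2 to 0.69 without Young MMP low 1 and Young MMP high 4 together. None of 45 ribosome biogenesis genes was called (median 0.25). Among abundant called genes were the RNA-binding protein genes Hnrnpab (314, 379 and 383 CPM against 514, 578, 496 and 542 CPM, 0.57 ± 0.13) and Ybx3 (267, 225 and 238 CPM against 392, 344, 321 and 381 CPM, 0.56 ± 0.12), both with adjusted p = 0.0487. The phosphatase gene Ppm1g was read at 157, 141 and 97.7 CPM and 258, 269, 234 and 247 CPM (log2 0.93 ± 0.17, adjusted p = 0.0284), and Nucks1, a chromatin protein gene, at 24.9, 43.4 and 34.6 CPM and 100.04, 91.2, 78.9 and 54.7 CPM (log2 1.24 ± 0.23, adjusted p = 0.0291). Cchcr1, a centriole and coiled-coil protein gene, was read at 1.86, 3.497 and 0.748 CPM and 13.4, 21.5, 16.5 and 25.3 CPM (log2 3.22 ± 0.44, adjusted p = 0.00825). Of these 5 genes, all with separate groups, Cchcr1 alone passed without Young MMP low 3 or any 1 of Young MMP high 1 to 3, 4 passed without Young MMP high 4, and 3 passed without each of the others (adjusted p up to 0.158).

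No gene of the mitochondrial lists was called. Of 37 complex I subunit genes, 34 had a fold change above 0, where 49.1% of all genes did, and 4 did not overlap with MMP high higher (median 0.23). Ndufb6 was at 0.53 ± 0.19 and Ndufa4 at 0.56 ± 0.22 (adjusted p = 0.198 and 0.244). Of 76 mitochondrial ribosome genes, 56 had a fold change above 0 and 10 did not overlap with MMP high higher (median 0.21). Mrpl51 was at 54.7, 54.001 and 48.3 CPM and 82.9, 71.2, 79.7 and 69.9 CPM (log2 0.54 ± 0.19, adjusted p = 0.203) and Mrpl12 at 0.38 ± 0.15. None of 28 genes of the tricarboxylic acid cycle (median 0.03), 33 of glycolysis (-0.10), 22 of mitochondrial dynamics and mitophagy (-0.16) and 29 of mitochondrial calcium, carriers and uncoupling (0.03) was called. In the last list, the dicarboxylate carrier Slc25a10 was at log2 1.00 ± 0.31, adjusted p = 0.139, the channel gene Vdac1 at log2 0.32 ± 0.14, adjusted p = 0.302 and the proton carrier Ucp2 at log2 -0.02 ± 0.23, adjusted p = 0.978. No library held a count for any of the 37 symbols of mitochondrial DNA (all at 0), so transcripts made inside mitochondria could not be compared.

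Of the called megakaryocyte and platelet genes, 5 were higher in MMP high HSCs and 1, Mmrn1, was lower. Pf4, a chemokine of platelet granules, was read at 85.3, 43.2 and 28.2 CPM in MMP low and 333, 321, 325 and 93.4 CPM in MMP high libraries. Young MMP high 1 to 3 lie close together, and Young MMP high 4 lies far below them and just above the highest MMP low library (log2 2.36 ± 0.49, adjusted p = 0.040002). Gp1bb, part of the platelet receptor for von Willebrand factor, was read at 26.4, 16.97 and 16.9 CPM and 62.8, 72.2, 62.5 and 34.6 CPM (log2 1.53 ± 0.26, adjusted p = 0.0216). Gp5, of the same receptor, was read at 26.8, 32.4 and 23.5 CPM and 77.2, 86.6, 61.9 and 53.95 CPM (log2 1.34 ± 0.24, adjusted p = 0.0265). Gp1bb overlaps the tested gene Sept5 on the same strand in the annotation, so the split of reads between them is uncertain. Itga2b, the platelet integrin CD41, was read at 57.8, 102 and 82.8 CPM and 266, 337, 183 and 267 CPM (log2 1.70 ± 0.33, adjusted p = 0.0322). In the other direction, Mmrn1, a carrier protein of platelet granules, was read at 215, 408 and 287 CPM and 186, 116, 188 and 124 CPM (log2 -0.98 ± 0.22, adjusted p = 0.0487).

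Gata1, the transcription factor shared by the megakaryocyte and erythroid lineages, was read at 39.4, 18.4 and 18.7 CPM in MMP low and 68.8, 83.3, 61.01 and 49.1 CPM in MMP high libraries (log2 1.36 ± 0.30, adjusted p = 0.0487). Gata2 was at 334, 310.2 and 463 CPM and 237, 353, 297 and 456 CPM, with overlap (log2 -0.14 ± 0.24, adjusted p = 0.855), and Nfe2 at -0.47 ± 0.14 (adjusted p = 0.127). Of 34 megakaryocyte and platelet genes, 5 rose (Gata1 included) and 1 fell, and the median was 0.40. In the same directions 8 and 2 of the 34 did not overlap, where 5.65% and 6.49% of all genes did. Mmrn1, the gene that fell, stayed called in 1 of the 13 fits with 1 library left out. The thrombin receptor gene F2rl2 missed the threshold at 8.84, 3.60004 and 4.49 CPM and 20.6, 32.2, 19.3 and 15.8 CPM (log2 1.96 ± 0.46, adjusted p = 0.0603), and the small GTPase Rap1b was at 0.42 ± 0.15. Of the 6 called genes, none passed once Young MMP high 1 or 2, or Young MMP low 3, was left out. Without Young MMP high 3 or Young MMP low 2, 2 passed, without each Old MMP high library and Old MMP low 3, 3 did, and without each of the others 4 or 5 did (adjusted p up to 0.162).

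Of 28 erythroid genes, 3 rose and none fell (median 0.46). Besides Gata1 these were Aqp1, the water channel, read at 14.1, 10.6 and 13.9 CPM in MMP low and 39.04, 41.4, 34.5 and 21.9 CPM in MMP high libraries (log2 1.41 ± 0.31, adjusted p = 0.04797), and Mfsd2b, the sphingosine-1-phosphate exporter of red cells and platelets, read at 53.5, 35.4 and 33.2 CPM and 129.7, 156, 95.8 and 79.7 CPM (log2 1.50 ± 0.29, adjusted p = 0.0322). Both had separate groups. The globin gene Hba-a1 varied widely within both groups, at 5600.4, 3137 and 1140.1 CPM and 12725, 786, 6876 and 607 CPM (log2 0.67 ± 1.09, adjusted p = 0.838). The sums of 12 erythroblast markers were 19721, 12303 and 5453 CPM in Young MMP low 1 to 3 and 41949, 4241, 23923 and 3880 CPM in Young MMP high 1 to 4. They overlapped, and their part in the values of the 3 called genes was not tested. None of the 3 passed once Young MMP high 1, 2 or 3, or Young MMP low 2 or 3, was left out, and 1 or 2 did without 1 old library (adjusted p up to 0.160). The list's median turned to -0.05 in the fit with a block for neighbouring library names.

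**Figure D4:**
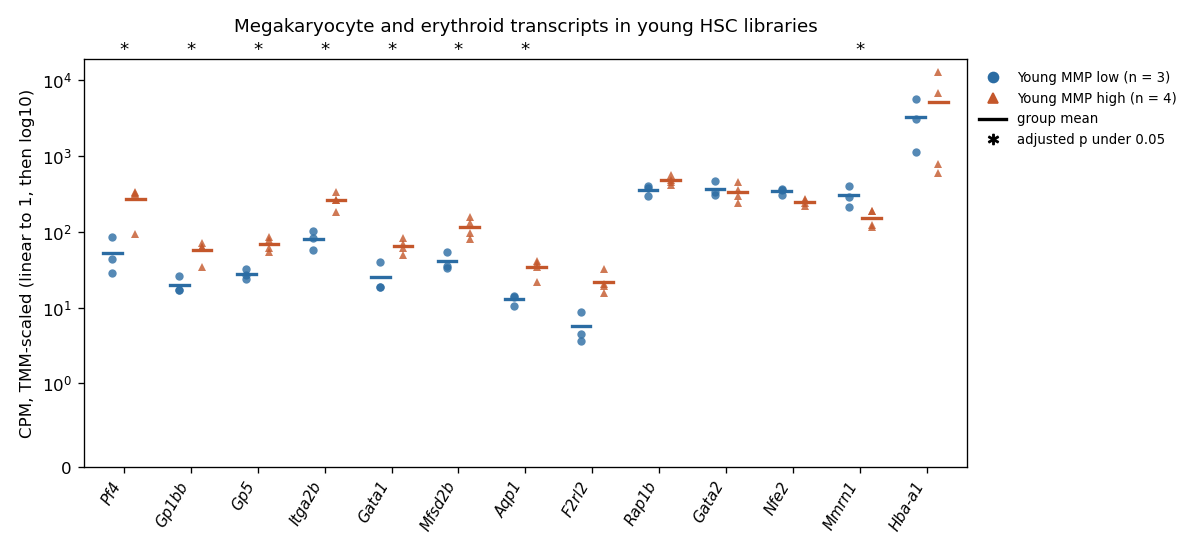
CPM of each library (y axis, linear up to 1 and log10 above) for megakaryocyte and erythroid genes (x axis), with bars at group means. Pf4, Gp1bb, Gp5, Itga2b, Gata1, Mfsd2b and Aqp1 are starred with MMP high above, Mmrn1 is starred with MMP high below, and Hba-a1 spans 607 to 12725 CPM within MMP high.

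Among surface and junction genes, 4 are described here that fell in MMP high HSCs. Ocln, which encodes the tight junction protein occludin, was read at 15.7, 16.7 and 20.6 CPM in MMP low and 5.62, 5.01, 5.27 and 5.34 CPM in MMP high libraries (log2 -1.73 ± 0.28, adjusted p = 0.0153). Esam, an adhesion molecule of HSCs and endothelium, was read at 212, 158 and 274 CPM and 112, 111, 109.5 and 130.05 CPM (log2 -0.89 ± 0.18, adjusted p = 0.0352). Emcn, the sialomucin endomucin, was read at 34.4, 38.4 and 38.6 CPM and 9.58, 8.41, 17.5 and 6.01 CPM (log2 -1.84 ± 0.33, adjusted p = 0.0242), and Tm4sf1, an L6 family membrane protein, at 7.91, 3.39 and 16.1 CPM and 0.416, 0.1001, 0.343 and 1.78 CPM (log2 -3.78 ± 0.67, adjusted p = 0.0242). The groups are separate for all 4. Of 39 adhesion receptors and junction proteins, 1 rose (Itga2b) and 2 fell (Ocln and Esam), with a median of -0.22.

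Esam, Emcn and Tm4sf1 are also expressed by endothelium. The sums of 15 endothelial and stromal markers ran from 103 to 137 CPM in MMP low and from 47.9 to 96.5 CPM in MMP high libraries, and did not overlap. Emcn is itself 1 of the 15, so the separation of the sums is not independent of its call. Sums without Emcn are not given here. Of the 8 markers tested, all had a fold change below 0, and Emcn alone was called (median -1.23). Cdh5, the defining cadherin of endothelium, was at 0 in 6 of the 7 libraries and at 3.10 CPM in Young MMP low 3. Col1a1 stayed under 1 CPM. Cxcl12 reached more, from 0 to 13.96 CPM in MMP low and from 1.50 to 7.01 CPM in MMP high libraries, with overlap. Lepr ran from 0 to 1.75 CPM and from 0 to 1.10 CPM. The part of endothelial and stromal cells in the result was not tested. Ocln, Esam, Emcn and Tm4sf1 all missed the threshold once Young MMP high 1 or 2, or Young MMP low 3, was left out (adjusted p up to 0.133). Esam and Tm4sf1 missed it without Young MMP high 3, and Esam also without Young MMP low 1, each Old MMP high library and Old MMP low 1.

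Signalling genes gave single calls. Tgfb1, a ligand that keeps HSCs quiescent, rose from 70.9, 72.8 and 73.1 CPM to 123, 154, 137 and 110.1 CPM (log2 0.86 ± 0.18, adjusted p = 0.0379), as the single called member of 28 genes of TGF-beta and BMP signalling (median -0.02). Cyr61, a matrix protein among the immediate early genes, fell from 79.7, 60.7 and 129 CPM to 18.9, 35.9, 23.8 and 39.3 CPM (log2 -1.61 ± 0.30, adjusted p = 0.02903), 1 of 30 such genes (median -0.23). Sesn1, a p53 and FoxO target that restrains mTOR complex 1, fell from 107, 89.2 and 137 CPM to 58.9, 52.7, 51.6 and 55.96 CPM (log2 -1.02 ± 0.16, adjusted p = 0.0152), 1 of 29 p53 target and apoptosis genes (median 0.05). Gadd45g, a stress-inducible gene, fell from 54.2, 51.4 and 53.8 CPM to 18.5, 27.3, 22.7 and 18.02 CPM (log2 -1.30 ± 0.21, adjusted p = 0.0157). Rhoj, a small GTPase, was read at 21.1, 20.2 and 21.1 CPM and 6.77, 5.01, 8.13 and 3.11 CPM (log2 -1.85 ± 0.31, adjusted p = 0.0216), and Plcl1, a phospholipase C relative without catalytic activity, at 5.702, 12.5 and 26.4 CPM and 1.56, 2.203, 2.86 and 2.56 CPM (log2 -2.69 ± 0.44, adjusted p = 0.0183). The Rab regulators Tbc1d10c (263, 229.6 and 219 CPM against 101, 143, 140.3 and 119 CPM, -0.91 ± 0.15) and Dennd1c (84.5, 81.3 and 114 CPM against 41.1, 40.9, 34.2 and 36.9 CPM, -1.28 ± 0.16) and the gene Tcp11l2 (168, 171 and 200.5 CPM against 35.4, 51.8, 84.4 and 66.5 CPM, -1.60 ± 0.26) fell as well. None of 35 cytokine and growth factor receptors (median -0.32), 27 genes of Wnt and Notch signalling (-0.10) and 20 of the NF-kappa B pathway (-0.28) was called. Of the 9 called genes in this group, Dennd1c alone passed without Young MMP low 3, 3 passed without Young MMP high 1 or 2, 7 without Young MMP high 3, and 8 without Young MMP low 1 or 2 or Old MMP high 3 (adjusted p up to 0.111).

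Of 34 genes of glutathione, sulfation and detoxification, 3 were called, all lower in MMP high HSCs. Sult1a1, which adds sulfate to phenols, was read at 73.5, 44.1 and 48.5 CPM in MMP low and 11.03, 11.4, 9.84 and 4.23 CPM in MMP high libraries, and is among the called genes of smallest p (log2 -2.60 ± 0.31, adjusted p = 0.00387). Gstm1, a glutathione transferase, was read at 609.5, 403 and 467 CPM and 133, 186, 276 and 301 CPM (log2 -1.14 ± 0.23, adjusted p = 0.0377). Por, which passes electrons to cytochrome P450 enzymes, was read at 245, 103 and 180.2 CPM and 70.996, 92.6, 64.2 and 87.99 CPM (log2 -1.16 ± 0.24, adjusted p = 0.0396). All 3 had separate groups. The other 31 did not pass, and over the 34 the median was -0.33, with 7 not overlapping with MMP high lower. Sult1a1 passed without each library, while Gstm1 and Por passed only without Young MMP high 4 or Young MMP low 2 (adjusted p up to 0.124). None of 29 antioxidant and thioredoxin genes was called (median -0.02).

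Lysosomal genes were lower in sign, with few calls. Ctsf, a cysteine cathepsin, was read at 58.1, 66.3 and 109 CPM in MMP low and 24.4, 25.8, 27.8 and 44.5 CPM in MMP high libraries (log2 -1.34 ± 0.27, adjusted p = 0.0347), and was the single called member of 39 lysosome and autophagy genes. Of these, 32 had a fold change below 0 and 7 did not overlap, all with MMP high lower (median -0.26). The call of Ctsf ended when Young MMP high 1, 2 or 3, Young MMP low 3 or any Old MMP high library was left out (adjusted p up to 0.125). The autophagy marker Map1lc3b was at 755, 613 and 617 CPM and 332, 413, 395 and 563 CPM (log2 -0.64 ± 0.17, adjusted p = 0.0913), Ctsb at -0.53 ± 0.16 (adjusted p = 0.131) and Ctsd at -0.13 ± 0.14 (adjusted p = 0.727). Neutrophils and monocytes hold many lysosomes: their 24 markers had a median of -0.58, with none called, and their sums overlapped between groups as given above. That median was -1.41 without Young MMP high 3 and turned to 0.27 without Young MMP low 1 and Young MMP high 4 together. Their part in these values was not tested.

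Outside the list, 3 called genes of lysosomal or lipid hydrolases were chosen after their values were seen. Asah1, the acid ceramidase, was read at 115, 129.7 and 108 CPM and 52.7, 49.8, 83.3 and 54.5 CPM (log2 -0.97 ± 0.19, adjusted p = 0.03102). Smpdl3a, a phosphodiesterase related to acid sphingomyelinase, was read at 190.02, 183 and 144 CPM and 68.2, 66.8, 81.2 and 118 CPM (log2 -1.05 ± 0.21, adjusted p = 0.0355). Nceh1, a cholesterol ester hydrolase, was read at 111, 166 and 160.4 CPM and 74.3, 89.4, 76.7 and 98.5 CPM (log2 -0.79 ± 0.17, adjusted p = 0.0487). None of the 3 passed without Young MMP high 1 or 2, Young MMP low 2 or 3, Old MMP low 1 or any Old MMP high library (adjusted p up to 0.151). Nceh1 alone passed without Young MMP low 1, Asah1 alone without Young MMP high 3, Asah1 and Smpdl3a without Old MMP low 2 or 3, and all 3 without Young MMP high 4. Plin3, a coat protein of lipid droplets, fell from 78.9, 77.2 and 102 CPM to 45.8, 47.9, 60.8 and 52.1 CPM (log2 -0.74 ± 0.16, adjusted p = 0.0459), and was the single called member of 29 genes of fatty acid oxidation and lipid droplets (median -0.21). Plin3 missed the threshold without each library in turn (adjusted p from 0.0556 to 0.163), so its call rests on all 13.

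**Figure D5:**
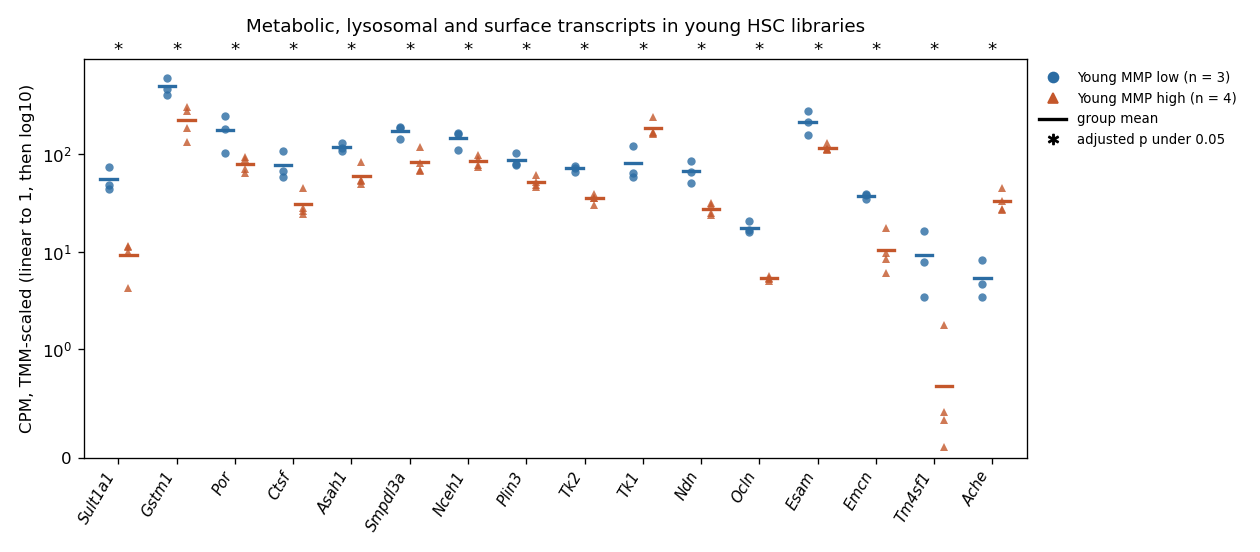
CPM of each library (y axis, linear up to 1 and log10 above) for metabolic, lysosomal and surface genes (x axis), with bars at group means. All 16 genes are starred: Tk1 and Ache lie higher and the other 14 lie lower in MMP high libraries, without overlap.

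Imprinted genes, several of which are linked to HSC quiescence, had 1 call. Ndn, which encodes the growth suppressor necdin, was read at 85.6, 50.4 and 64.8 CPM in MMP low and 29.9, 23.5, 24.95 and 31.1 CPM in MMP high libraries, without overlap (log2 -1.29 ± 0.22, adjusted p = 0.0216). It missed the threshold without Young MMP low 3 or any 1 of Young MMP high 1 to 3 (adjusted p up to 0.0796). Of 24 imprinted genes tested, 17 had a fold change below 0 and 6 did not overlap, all with MMP high lower (median -0.33). The cell cycle inhibitor Cdkn1c (p57) was at 45.4, 59.2 and 100.4 CPM and 13.9, 34.2, 19.001 and 45.3 CPM, separate but not called (log2 -1.28 ± 0.36, adjusted p = 0.117). Gnas (0.16 ± 0.14) and Kcnq1ot1 (0.38 ± 0.35) were not called. Dlk1 and the noncoding RNA Meg3, neighbours in 1 imprinted cluster and chosen after their values were seen, were at 8.03, 4.63 and 7.48 and 4.19, 16.97 and 8.54 CPM in MMP low and 2.39, 1.802, 2.86 and 3.78 and 2.29, 0.2003, 2.29 and 1.78 CPM in MMP high libraries, both separate and both uncalled (log2 -1.31 ± 0.46, adjusted p = 0.1995 and log2 -2.59 ± 0.66, adjusted p = 0.0839).

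Of 37 HSC transcription factors, Hlf was called. Hlf, a factor of HSC maintenance, fell from 162, 189 and 212 CPM to 87.4, 72.7, 92.03 and 89.9 CPM (log2 -1.13 ± 0.21, adjusted p = 0.0284). In all, 13 of the 37 did not overlap, all with MMP high lower, and the median was -0.34. Meis1 was at 417, 491 and 461 CPM and 373, 361, 370.1 and 413 CPM (log2 -0.27 ± 0.14, adjusted p = 0.401) and Lmo2 at 746, 944 and 923 CPM and 582, 673, 561 and 732 CPM (log2 -0.45 ± 0.16, adjusted p = 0.193), both separate and uncalled. Hlf missed the threshold without Young MMP low 3 or any 1 of Young MMP high 1 to 3 (adjusted p up to 0.0987).

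The interaction of age and MMP asked whether the young fold change differed from that of old HSCs. No gene passed (0%), with 693 at an unadjusted p under 0.05 (4.05%) and 2 called by DESeq2. For Gbp4 the fold change was -2.52 ± 0.29 in young and -2.63 in old HSCs, for Gimap6 -1.31 ± 0.20 and -1.81, for Pf4 2.36 ± 0.49 and 2.09, and for Ncapd2 1.41 ± 0.21 and 2.23. Of the 5 genes of smallest interaction p, 4 had a positive fold change in old HSCs. Pomt1, an O-mannosyltransferase, was at 48.3, 41.2 and 54.6 CPM and 40.4, 54.5, 35.7 and 33.7 CPM in young HSCs (-0.23 ± 0.22, against 1.51 in old HSCs), and the histone deacetylase Hdac5 at 21.6, 22.6 and 25.5 CPM and 20.9, 19.3, 12.1 and 22.2 CPM (-0.32 ± 0.26, against 1.32). Rps4l (-0.47 ± 0.21 against 1.03) and 4930427A07Rik (0.74 ± 0.27 against 2.52) are the third and the fourth. Prkcz, an atypical protein kinase C, was at 0 in all 3 Young MMP low libraries and at 0.445 to 1.25 CPM in MMP high libraries. It was called in young HSCs at these low levels (adjusted p = 0.0401; up to 0.104 with 1 library left out, and under the threshold only without Young MMP high 4), and its old means were 3.79 CPM in MMP low and 1.41 CPM in MMP high. The interaction did not pass for any of these 5 genes, all with an adjusted p of 1.00.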

How the data were processed

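RNA of sorted young and old mouse HSCs was measured in 13 libraries. The authors deposited raw counts per gene symbol, 43280 symbols in each library and no header. The tools listed per the submitters' processing notes are Trim Galore and STAR 2.7, with GRCm38 as the build. Not given in the sources used here are the program that counted reads, its use of strand and its gene models, so reads of a gene and an antisense partner cannot be told apart. Counts were analysed in R 4.3.3 with edgeR 4.0.16: filterByExpr (minimum count 10, minimum total 15), TMM scaling, and 1 robust quasi-likelihood fit of 4 group means over all 13 libraries (9 residual degrees of freedom, common biological coefficient of variation 0.413). Tests are two-sided and adjusted by Benjamini-Hochberg over 17125 genes. On simulated counts with 17125 genes, this fit called 22.0% of genes changed 2-fold, 89.0% of those changed 4-fold and 0.0295% of unchanged genes. The changed genes were drawn from those with a mean above 10 CPM, so their rates do not cover genes at lower levels. Simulated counts were independent between libraries, and no simulated library stood apart as some real ones do. DESeq2 1.42.0, other scalings, filters, blocks and left-out libraries were the alternatives. DESeq2 on the young libraries alone was added after the data were seen.

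The members and the 64 gene lists (1748 genes, 1678 tested) were chosen with earlier results of these data known, so counts within lists are descriptions. Named genes are the called genes of smallest p (20 per direction) or highest CPM (10 per direction), called or leading members of lists, all GBP, IRG, IFITM and GIMAP genes, and the 5 genes of smallest interaction p, except where a gene is said to be chosen after its values were seen. Some genes that the rule names are not reported here. Positions come from GENCODE mouse release M21 (GRCm38), in which 149 of 150 named genes matched once. Of these, 49 overlap another tested gene on either strand, so some of their reads may belong to that gene. Counts are of reads without molecular identifiers, so the limit of 3 counts that a count of 0 allows covers counting error only.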

Additional observations from a re-analysis of the deposited data

Results flagged for a closer look

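Of 150 named genes and 4 library measures checked, 12 genes had 1 library of Young MMP high far from the other 3 of that group. Distance was measured by the gap to the nearest of them over the range of the group. Chance flags about 1 in 20 groups, so many of the 12 can arise by chance. Young MMP low, with 3 libraries, was not examined.

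Young MMP high 4 was the library in 7 of the 12. Pf4, the platelet chemokine, was lowest there at 93.4 CPM against 321 to 333 CPM, and the respiratory chain gene Ndufa4 was lowest there at 238 CPM against 265 to 269 CPM. Young MMP high 4 was highest for Oasl2 (70.1 CPM against 41.9 to 44.8), Lgals3bp (279 against 159 to 172), Esam (130.0 against 109.5 to 112), Gnas (838 against 625 to 641) and the progenitor antigen Cd34 (437 against 214 to 243). Young MMP high 2 was highest for Gbp11 (3.40 CPM against 0.334 to 0.458), the mitotic kinase Nek2 (64.7 against 35.4 to 38.7) and Tk1 (239 against 162 to 169). Cd74 was lowest in Young MMP high 1 at 107 CPM against 145 to 148 CPM, and the acid ceramidase gene Asah1 was highest in Young MMP high 3 at 83.3 CPM against 49.8 to 54.5 CPM. Young MMP high 4 also held the smallest sum of neutrophil and monocyte markers among the young libraries, 2060.5 CPM, and its part in these values was not tested.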

How the results depend on the processing

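The 170 called genes kept the sign of their fold change in every fit, over the 169 or 170 of them that each fit tested. Their young groups do not overlap, so fits that only leave out libraries or change scaling or filters could hardly turn a sign. Counts of calls moved. Of the young contrast, 161 genes were called with RLE scaling, 214 with a stricter filter and 139 with non-robust dispersion. With no filter on low counts, 756 genes were called in the young contrast and 58 in the interaction, over 35834 genes. DESeq2 called 796 and 2. The young libraries alone gave 0 calls in edgeR and 473 in DESeq2. Without Young MMP low 1 and Young MMP high 4 together, 369 genes were called. With 1 library left out, calls ran from 11 (without Young MMP low 3) to 275 (without Young MMP high 4), and interaction calls stayed at 0. Genes whose young groups do not overlap numbered 2079, and 2520 to 4160 with 1 young library left out, the highest without Young MMP low 1. The causes of these moves were not tested, except that fewer libraries make separate groups more frequent by construction.

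A fit with the replicate block called 98 genes, 62 of them among the 170. The residuals of same-numbered young libraries correlated at -0.0312, -0.153 and -0.227, and 0 of the 3 MMP low libraries correlated best with its own number. With so few pairs, these values cannot tell whether samples of the same number share an origin, and the labels do not say. Libraries of neighbouring names correlated at 0.0822, 0.187 and 0.243, and a block for them gave 117 calls (68 shared) and a term for the name series 231 (164 shared). At this depth, genes under about 1 CPM rest on few counts.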
